A study of Homo sapiens with 6 samples.

Results

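Transcript-end peaks are AGO2-bound RNA regions whose deposited annotation begins with TTS, the end of an annotated transcript. They were chosen by that annotation alone, and 417 of the 7772 peaks in the list (5.37%) carried it. They named 328 genes, of which 264 had 1 such peak and 16 had 3 or more. The list comes from AGO2 HITS-CLIP, in which ultraviolet light crosslinks AGO2 to the RNA it touches before immunoprecipitation with the anti-Ago2 antibody 4F9. The cells were 22RV1, an established human prostate cancer line, transfected in suspension. They received 20 nM of the miR-194 mimic in 3 libraries, and 20 nM of a negative control in the other 3. They were irradiated 24 h later with 600 mJ/cm2 at 254 nm. Separate cultures are not stated for libraries of the same group.

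MicroRNAs guide AGO2 to transcripts by pairing of their seed, the bases near their 5' end, most often with sites in 3' UTRs. The end of an annotated transcript is where RNA is cut and polyadenylated, and many genes can end at more than one place. Neighbouring genes on opposite strands can also end facing each other, so that a region beyond the end of one gene is the 3' UTR of the other. An annotation by the nearest transcript end does not have to name the gene on the strand of the peak.

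The mature miR-194-5p sequence is shown because every site below is read against it. It is from RefSeq (GRCh38.p14), and its seed, bases 2 to 8, is in capitals.
hsa-miR-194-5p: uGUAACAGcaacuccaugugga

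Sites were classed from the longest match down, as the 8mer (CTGTTACA), the 7mer-m8 (CTGTTAC, no A opposite base 1), the 7mer-A1 (TGTTACA) and the 6mer (TGTTAC). Peaks with an 8mer or either kind of 7mer on their own strand are counted as having a 7mer match. Every 7mer match in a peak with a score of at least 100 follows, with 30 bases read from the GENCODE 29 transcript that holds the listed bases (GRCh38) and the seed match in capitals. These sites are shown because their peaks are among the strongest of the class. Of the 31 peaks with such a score, 16 held a 7mer match. The sites are grouped by the gene in which they were found. The first 8 come from peaks that lie on the strand opposite to the transcript named in their annotation, and are shown in the gene on the peak's strand.
SRPRA, score 945, annotated to FAM118B: atcagctaggctggagtgattTGTTACAaa
SYVN1, score 475, annotated to MRPL49: tgtcttttccccttggttttgTGTTACAag
SRPRA, score 283, annotated to FAM118B: tctgcaaggaaggcctaatcaTGTTACAat
PPP1R14B, score 228, annotated to FKBP2: gtcaaggagctgctggttgaCTGTTACAaa
SNAPIN, score 166, annotated to ILF2: accagaggggcttcctttgtaTGTTACAtg
LZTS2, score 123, annotated to PDZD7: ctcaaaggtccccgtgttcaCTGTTACcca
JKAMP, score 115, annotated to CCDC175: atgcaaaactctgtaatactCTGTTACAca
IPO4, score 108, annotated to REC8: ggctgtccctgaggctggatCTGTTACAaa

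The next 8, in 7 peaks, come from peaks on the annotated strand and were found in the annotated gene. They lay 74 nt from the transcript's end in SLC7A5 and DHX15, 69 nt in FUT1, and 84 and 29 nt in RNF4. Others lay farther from it, at 1238 nt in coding sequence of a HELLS transcript, 2379 nt in CNIH1 and 11417 nt in NAP1L1. Each distance is to the end of the GENCODE 29 transcript used, which may not be the end that gave the peak its annotation.
SLC7A5, score 293: attctgtgttaatggctaacCTGTTACAct
DHX15, score 197: ttccttttagaagttgtgaaaTGTTACAac
HELLS, score 163: gattgaatatcctatagaccCTGTTACAca
FUT1, score 144: tcagggagttacagttacaatTGTTACAgt
NAP1L1, score 132: tagctgtgcctttcattacttTGTTACAga
CNIH1, score 119: tccagatgggtttcctggggCTGTTACttg
RNF4, score 106: tacatagttcaactctttcttTGTTACAtt
RNF4, score 106: tgctttggactcctctgctagTGTTACAga

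The last comes from a peak annotated to the end of a microRNA gene, and was found in coding sequence of the protein-coding host.
COPG1, score 110, annotated to MIR6826: actgaggcctatgaggtgctCTGTTACgtg

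Each peak has 1 score from the authors, and the sources used here do not say what it measures. The list is merged, with no value per library. The depth is therefore unknown, no comparison of mimic with control was possible, and scores only rank peaks within the list. Intervals below are exact Clopper-Pearson 95% intervals that cover counting error only, and peaks of 1 gene are not independent. No difference below was tested.

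The median score of transcript-end peaks was 16 (interquartile range 12 to 26, range 5 to 945). It was 17 for 3' UTR peaks, 17 for coding exon peaks, 13 for intron peaks and 15 over the whole list. The median length was 71 nt, against 67 nt over the whole list. The upper quartile of the class, 26, lay between 23 over the whole list and the 31 of coding exon and 35 of 3' UTR peaks.

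The 12 highest peaks named 8 genes. The highest, with a score of 945, was annotated to FAM118B and lay at chr11:126133047-126133397 on the minus strand (hg19). The next, with 475, was annotated to MRPL49, a protein of the mitochondrial ribosome, at chr11:64894812-64895014 on the minus strand. SRPRA, which encodes a subunit of the signal recognition particle receptor, held the peak at 443. SLC7A5, an amino acid transporter, had 293 at chr16:87863640-87863778 on the minus strand. SNORD20, a small nucleolar RNA that lies in an intron of NCL, had 289. POMK, a kinase that acts on O-mannose glycans, had 259, and FKBP2, a prolyl isomerase, had 228. DHX15, an RNA helicase of the spliceosome, had 197 and completed the 12, of which 5 named FAM118B.

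A 7mer match to miR-194 was listed in 85 of the 417 peaks, 20.4% (interval 16.6 to 24.6). Among 3' UTR peaks 19.8% had one, among those of coding exons 15.0%, and over the whole list 13.4%. The bases listed per site differ between parts of the gene, by a search that the sources used here do not describe, so these shares are given side by side only. By best site, 25 peaks held an 8mer, 21 a 7mer-m8, 39 a 7mer-A1, 15 a 6mer and 2 a variant that lacks the 6mer. The other 315 had no site listed on their own strand. In all, 109 sites were listed on the peak's strand, and 2 on the reverse strand.

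Peaks with a 7mer match had the higher scores. Their median was 26 (interquartile range 19 to 69), against 14 (12 to 22) without one. The median was 36 for 8mer, 25 for 7mer-m8, 26 for 7mer-A1 and 32 for 6mer peaks, and these ranges overlapped widely. Length moved with the match, from a median of 67.5 nt without one to 89 nt with one, and the part of length in the score difference was not tested. A 7mer match was listed in 16 of 31 peaks with a score of at least 100 (51.6%), in 38 of 101 from 23 to 99 (37.6%), in 24 of 159 from 13 to 22 (15.1%) and in 7 of 126 at 12 or less (5.56%). Of the 88 listed 7mer sites, 60 (68.2%) were centred within 20 nt of the peak's centre, and the median distance was 11.75 nt. The share for sites placed at random was not computed, and in short peaks any site lies near the centre.

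**Figure D1:**
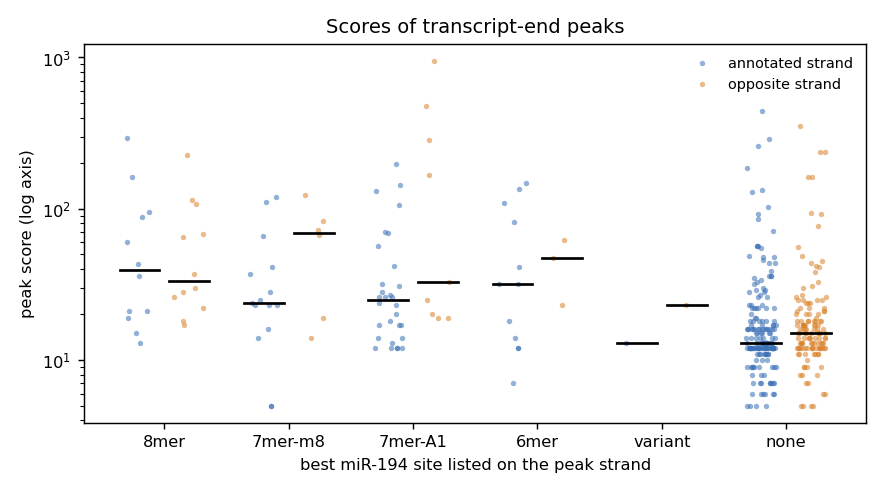
Score of each transcript-end peak (log axis) by the best miR-194 site listed on its strand, with peaks on the annotated strand in blue and on the opposite strand in orange; the black bars are medians. The highest peak, at 945, holds a 7mer-A1 and is on the opposite strand, and 315 peaks have no site.

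The peaks were often on the other strand from the transcript they were named for. Of 416 peaks whose annotated transcript had a known strand, 253 (60.8%, interval 55.9 to 65.5) lay on its strand and 163 (39.2%) on the opposite one. The annotated strand held 1774 of 1777 such peaks for 3' UTRs (99.8%) and all 2550 for coding exons. Promoter peaks, the other class defined by distance from a transcript edge, had 242 of 407 on it (59.5%). The table also has a class of 210 peaks annotated as wrong strand, and the 163 peaks are not among them. The opposite strand held 13 of the 31 peaks with a score of at least 100 (41.9%), 38 of 101 from 23 to 99 (37.6%), 72 of 159 from 13 to 22 (45.3%) and 40 of 126 at 12 or less (31.7%), with no steady order by score.

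**Figure D2:**
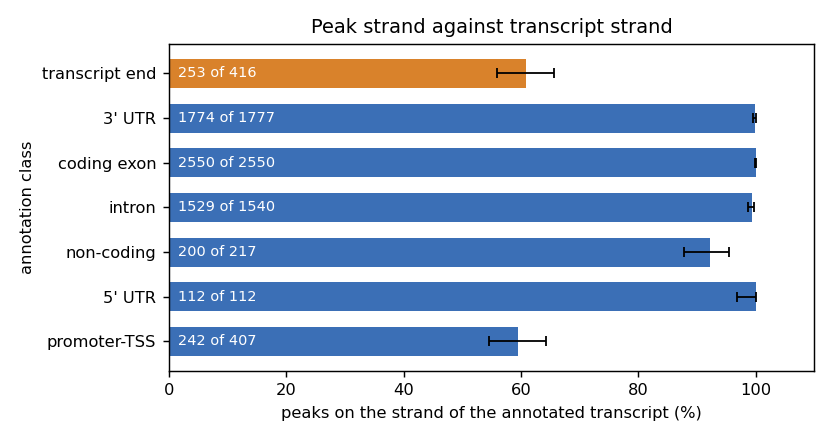
Share of peaks on the strand of the annotated transcript (%), by annotation class, with exact 95% intervals that cover counting error only and the counts in the bars. Transcript-end peaks are at 60.8% and promoter-TSS peaks at 59.5%, while 3' UTR and coding exon peaks are above 99%.

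Most opposite-strand peaks had another gene on their own strand at that place. Of 160 with a GENCODE transcript, 147 (91.9%, interval 86.5 to 95.6) had a gene on the peak's strand that covered part of the stretch from 100 nt before to 2000 nt past the annotated end. In 142 of them the gene ended facing the annotated one, and in 5 it spanned it. A gene on the other strand covered that stretch for 59 of 250 annotated-strand peaks (23.6%) and for 5881 of 19131 protein-coding genes in GENCODE (30.7%). Some annotated-strand peaks had another gene on the same strand over part of it. This was a host or overlapping gene for 56 and a neighbour for 37. Which gene those peaks came from was not tested. The 147 peaks pointed to 105 genes, and 145 of the peaks to a protein-coding one. The order and strands of genes were read from GENCODE 29 on GRCh38, and no coordinate was compared between builds.

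Bases of the listed sites were looked up in both genes. Of 35 sites in opposite-strand peaks, 34 (97.1%, interval 85.1 to 99.9) were in a transcript of the gene on the peak's strand. Only 1 was in the annotated gene, in PKD1L3, and it was also in IST1 on the peak's strand. That low count was nearly fixed by the search. The bases are read on the peak's strand, and the annotated gene lies on the other one. The site in the peak annotated to COX15, which CUTC spans on the other strand, was in neither gene. The reverse complement of the listed bases was found in the gene on the peak's strand for 0 of 35. It was found in a 3' UTR of the annotated gene for 2 of 35. Of the 34, 30 lay in a 3' UTR of at least 1 transcript and 4 in coding sequence only, among them the 8mer of PPP1R14B, the 7mer-m8 of APEH and the 7mer-m8 of POLRMT. The listed bases occurred once in the transcript used for 32 of the 34.

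In annotated-strand peaks, 55 of 73 sites (75.3%, interval 63.9 to 84.7) were in a transcript of the annotated gene, and the reverse complement of 2 was. A further 5 were in the host of a microRNA gene that gave the peak its name: COPG1, RUBCN with 2 sites, CUL4A and TMCC3. In all, 60 of the 73 were found in 1 of these genes. The rest were found in no gene searched, among them the 8mer of the KIF2A peak at 95. Of the 47 sites in the annotated transcript itself, 24 lay within 100 nt of its end. The 8mer of PEG10, in a peak of 88, lay 37 nt from the end of its transcript. Where 2 listed sites were found in the same gene, their spacing was compared between hg19 and the transcript. In all 10 such genes it was equal and in the same order, from 6 nt in TRAPPC13 to 390 nt in SRPRA. The sites were in different peaks in only 3 of the 10, and 5 of the 10 concerned opposite-strand peaks.

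**Figure D3:**
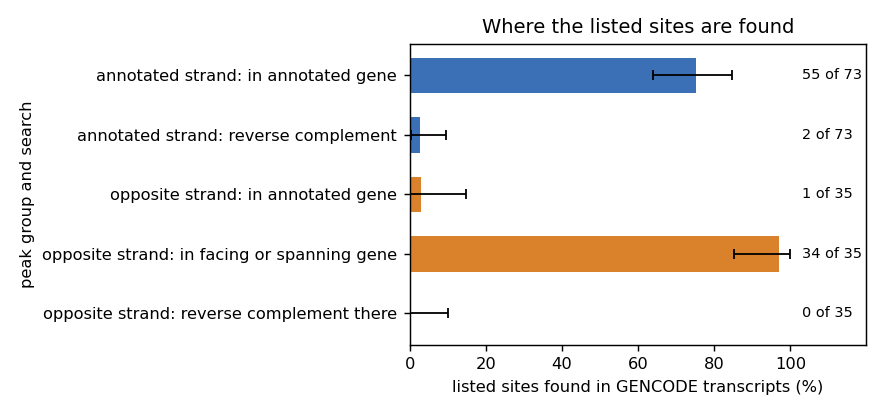
Share of listed sites found in GENCODE transcripts (%), for peaks on the annotated and the opposite strand, with exact 95% intervals that cover counting error only. The sites of opposite-strand peaks were found in the facing or spanning gene in 34 of 35 cases and in the annotated gene in 1 of 35. The 1 of 35 was nearly fixed, because the annotated gene lies on the other strand from the listed bases.

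The highest scores in the class came from such a place. A run of 6 minus strand peaks covered 936 nt at chr11:126132852-126133787. SRPRA lies on that strand and ends facing FAM118B. Only the peak nearest the end of SRPRA, with a score of 443, was named for SRPRA. The other 5, at 351, 945, 238, 283 and 236, were named for FAM118B. The 2 listed 7mer-A1 sites, in the peaks at 945 and 283, were 390 nt apart in both hg19 and the SRPRA transcript, at 411 and 801 nt from its end and in its 3' UTR. The highest peak of the run held a site, while peaks at 351 and 443 did not.

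**Figure D4:**
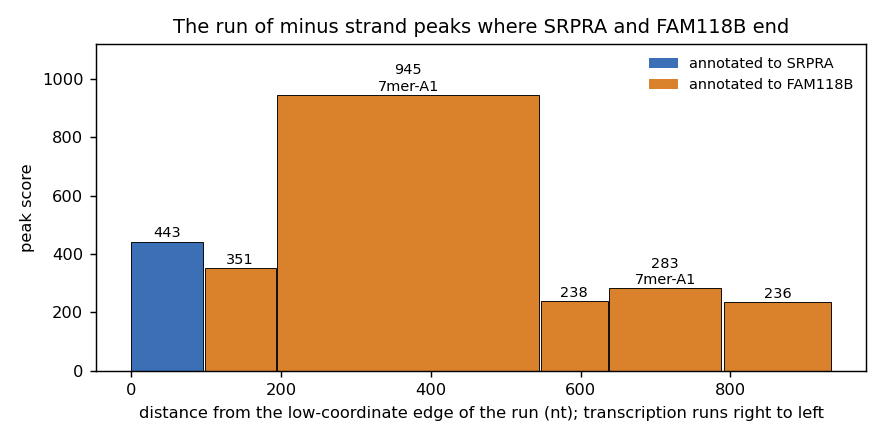
Score of the 6 minus strand peaks where SRPRA and FAM118B end, drawn to scale by distance (nt) from the low-coordinate edge of the run, with the annotated gene in colour. The peak at 443 is named for SRPRA and the other 5, from 236 to 945, for FAM118B, and 7mer-A1 sites are marked.

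Other high opposite-strand peaks had the same arrangement. MRPL49 ends facing SYVN1, a ubiquitin ligase of the endoplasmic reticulum, whose 3' UTR held the 7mer-A1 of the peak at 475, 105 nt from its end. FKBP2 ends facing PPP1R14B, a phosphatase inhibitor, whose coding sequence held the 8mer of the peak at 228. ILF2 ends facing SNAPIN, a SNARE-associated protein, with a peak of 166 at chr1:153634043-153634164 on the plus strand. GATC ends facing SRSF9, a splicing factor, with a score of 163, and VWA5B2 faces ALG3, a mannosyltransferase, with 163. Neither of these peaks had a listed site. PDZD7 ends facing LZTS2, whose 3' UTR held the 7mer-m8 of the peak at 123, 17 nt from a 6mer of the same peak. REC8, a meiotic cohesin, ends facing IPO4, a nuclear import receptor, whose 8mer lay 56 nt from its end in a peak of 108. MST1 faces APEH, a peptidase, with 83 and a 7mer-m8 in the coding sequence. At B3GNT8 the peaks on the strand of BCKDHA, a subunit of the branched-chain ketoacid dehydrogenase, scored 68, 11 and 9. The highest held an 8mer and a 7mer-A1 that were 67 nt apart in BCKDHA. The 13 opposite-strand peaks with no gene over the stretch had scores of at most 21, in VASH2, and no listed site.

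Few of the peaks had a 3' UTR peak of their gene beside them. On the same strand and within 2000 nt, 42 of 417 did (10.1%, interval 7.36 to 13.4), 21 of them within 10 nt. All 42 were on the annotated strand, which makes 16.6% of those 253, and 0 of 163 opposite-strand peaks had one. That 0 was nearly fixed by the search, which needed a 3' UTR peak of the annotated gene on the peak's strand. Of 3' UTR peaks, 1774 of 1777 lay on the strand of their own gene, so opposite-strand peaks could hardly have one. For opposite-strand peaks, a 3' UTR peak of the gene on the peak's strand lay within 2000 nt in 7. The transcript-end peak had the lower score in each of these 7, from 44 against 203 with a 7mer-A1 at TMEM41A to 8 against 20 with an 8mer at KHNYN and 5 against 13 at CEBPD. A same-strand peak of any class lay that near to 221 peaks (53.0%), and for 158 of these the nearest was another transcript-end peak. Among genes named by annotated-strand peaks, 81 of 208 (38.9%) had a 3' UTR, 5' UTR, coding exon, intron or non-coding peak anywhere. Promoter, intergenic and wrong-strand peaks, and peaks on the opposite strand from their transcript, were not counted. Among the annotated genes of opposite-strand peaks 20 of 119 had such a peak (16.8%), and among the genes on the peak's strand 32 of 105 (30.5%).

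In the 42 pairs, from 39 genes, the transcript-end peak scored higher than the nearest 3' UTR peak in 20, lower in 20 and equal in 2. The median ratio of the scores was 1.0 (interquartile range 0.611 to 3.12). The 3' UTR peak lay upstream in 38. SLC7A5 had 293 at the end with an 8mer, against 90 with no site. FUT1, a fucosyltransferase, had 144 with a 7mer-A1 against 10, and RNF4, a SUMO-targeted ubiquitin ligase, 106 with a 7mer-A1 against 7. RAC1, a small GTPase and a reported miR-194 target, had 130 with no site against 7, but a further 3' UTR peak of RAC1 reached 128 with a 7mer-A1. SYT4, a synaptotagmin, had 133 against 226, but a further 3' UTR peak of SYT4 reached 551 with an 8mer. SUMO2, a ubiquitin-like modifier, had 7 against 192 with an 8mer.

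Where only the transcript-end peak held a 7mer match, 16 pairs, it was the higher in 11 and the lower in 5, with a median ratio of 1.55. Where only the 3' UTR peak held one, 7 pairs, the transcript-end peak was the higher in 1 and the lower in 6, with a median ratio of 0.300. With a match in neither, 18 pairs, it was the higher in 8, the lower in 8 and equal in 2. Only the nearest 3' UTR peak was compared. Some pairs counted as having no match had another 3' UTR peak with a 7mer match within 2000 nt, as in SYT4 and TRIM36. So did some pairs with a match only at the transcript end. In BNIP2 such a 3' UTR peak reached 46 with an 8mer, against 13 at the end. GTF2E2 entered the 7 pairs more than once, against the same 3' UTR peak of 118. Peak length was not taken into account. Whichever peak of a pair held the match was thus more often the higher, in these few pairs.

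**Figure D5:**
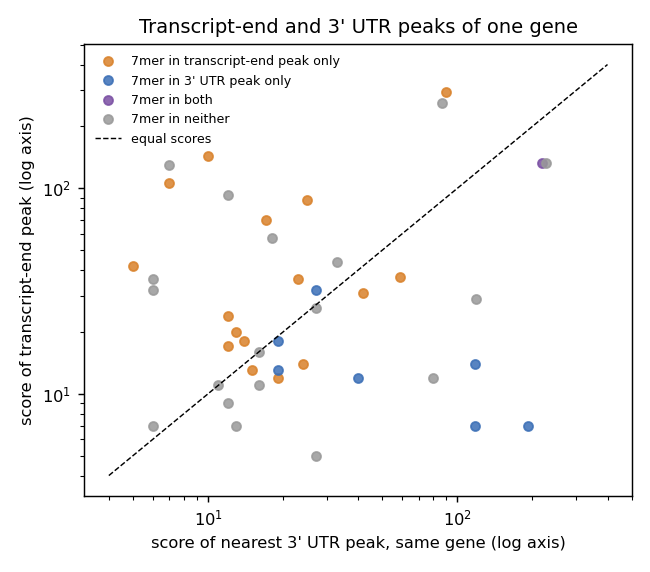
Score of each transcript-end peak against the score of the nearest 3' UTR peak of the same gene within 2000 nt (both log axes), coloured by which of the peaks holds a 7mer match; the dashed line marks equal scores. Of the 42 pairs, 20 lie above the line and 20 below.

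Transcript-end peaks came in runs as well as alone. With gaps of at most 100 nt, 265 stood alone and 63 runs held the rest. In 23 runs some peaks held a 7mer match and others did not, and the highest peak held one in 17 of them. HELLS, a chromatin remodeller, had a run of 5 from 163 to 6, with an 8mer in the highest. ADAM17, a membrane protease, had 5 from 149 to 9, with a 6mer in the highest and no 7mer match. SOD2, the mitochondrial superoxide dismutase, had 136 with a 6mer, 34 and 5. At CUTA, 2 peaks of 33 and 31 on the strand of PHF1 formed a run with no site, and a further peak of 20, outside the run at a gap of 116 nt, held a 7mer-A1. At C15orf40 the run on the strand of RAMAC had 45, 25, 19 and 5, with a 7mer-m8 in the peak at 19. At CCDC175 the run of 4 on the strand of JKAMP went from 115, with an 8mer, to 5.

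Most of the peaks named protein-coding transcripts, 346 in 271 genes, of which 22.8% held a 7mer match. MicroRNA genes were named by 38 peaks, 35 of them on the annotated strand and 33 inside a host or overlapping gene. Their median score was 13, and 4 held a 7mer match. The highest were MIR6826 in COPG1, a coat protein of transport vesicles, at 110 with a 7mer-m8, and MIR922 in RUBCN, a regulator of autophagy, at 60 with an 8mer. MIR3944 in ECHS1 had 57 and MIR6777 in SREBF1 had 49. All 13 peaks of small nucleolar RNA genes lay on the annotated strand inside a host gene, with a median of 27. The highest were SNORD20 in NCL at 289, SNORD9 in CHD8 at 186 and SNORA36A in DKC1 at 86. Whether the bound RNA was the small RNA or its host was not tested. TERC, the RNA of telomerase, had 1 peak at 39.

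Gene groups, read from symbol prefixes of the annotated gene, held few of the peaks, and are set against 5.37% of the whole list at transcript ends. Solute carriers had 20 of their 202 peaks there (9.90%), in 14 genes. Of these 20, 7 were on the opposite strand and 2 held a 7mer match, with SLC7A5 highest. Mitochondrial proteins had 6 of 76 (7.89%), of which 3 were on the opposite strand. Ubiquitin genes had 6 of 139 (4.32%), of which 2 were. Splicing factors and helicases had 5 of 82, vesicle traffic genes 5 of 141, histones 2 of 13, cytosolic ribosomal proteins 2 of 28 and zinc fingers 2 of 128. Non-coding RNA genes had 55 of 131 (42.0%). By kind of gene, 38 transcript-end peaks named microRNA genes and 13 small nucleolar RNA genes. Gene length was not taken into account, so the 42.0% cannot be read as an excess at transcript ends. Of the reported miR-194 targets, with 3 of 56, RAC1 had a score of 130, SUFU 20 on the opposite strand and PTPN13 12, and none of these peaks held a 7mer match. Androgen signalling genes had 0 of 70.

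The groups changed when opposite-strand peaks were counted by the gene on the peak's strand. Mitochondrial proteins were then named by 5 of them, with a highest score of 94, and ubiquitin genes by 4, with a highest of 23. Solute carriers were named by 3, zinc fingers by 2, and splicing factors and helicases by 1, the peak of 163 at SRSF9. Vesicle traffic genes were named by 2, both in RAB35, a small GTPase, at 56 and at 30 with an 8mer. Histones, cytosolic ribosomal proteins, non-coding RNA genes by symbol prefix, reported miR-194 targets and androgen signalling genes were named by 0. The prefixes missed Z92544.2 and C5orf66, non-coding genes on the strand of peaks annotated to FBXL16 and LINC02900.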

How the data were processed

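Each peak's score was made and deposited by the authors as a whole number. What it measures, and whether libraries were pooled, is not given in the sources used. Per the submitters' processing notes, the tools were MACS2, SAMtools, TopHat2 2.0.9, FastQC and cutadapt 1.8.1 and the build was hg19, with no order or settings. There were 0 columns of other samples. Members were peaks whose annotation starts with TTS, and listed sites were classed by their bases. Transcripts were matched by accession to RefSeq and GENCODE 29, and 416 of 417 had a known strand. Neighbour genes covered part of the stretch from 100 nt before to 2000 nt past the annotated end. No hg19 sequence was used here. The members, gene lists and named-gene rule were chosen with earlier results of these data known. The rule took the 12 highest peaks, the 10 highest with a 7mer match, the 8 highest with a same-gene 3' UTR peak, the 8 highest on the opposite strand genes with 3 or more peaks, and gene-list members with a score of at least 23. Other names were chosen after their values were seen, as were the neighbour and site look-ups. Python 3.11.15, pandas 2.3.3, numpy 2.4.6 and scipy 1.17.1 were used.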

Additional observations from a re-analysis of the deposited data

How the results depend on the processing

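Of 22 alternatives, 17 gave a value inside the interval of the value reported and 5 did not. Among peaks above the median score of the list, the share with a 7mer match was 32.3% and the median score 26. That median had to rise, because the peaks were chosen by score. Counting 8mers only gave 5.995%, which could not exceed the share with any 7mer match. A same-strand peak of any class lay within 5000 nt of 58.0% of peaks. A stretch of 500 nt past the end left 86.2% of opposite-strand peaks with a gene on their strand. The protein-coding, shorter-stretch and RefSeq-matched alternatives were chosen after seeing the data. No paired analysis was possible because the table holds 1 merged list with no value per library, and no library could be left out for the same reason. Depth is unknown, so no limit of detection can be given.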
